A study of Mus musculus with 31 samples.

Results

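Interferon-stimulated genes were followed in the lungs of mice given oleic acid or saline by vein. The set holds 38 genes of 25127 genes or unnamed transcripts tested, and its members were named as genes of this response, with earlier results of these data known, not by a cut on measured values. There are 28 genes of the type I interferon response. They comprise 21 antiviral effectors (Isg15, Ifit1, Ifit2, Ifit3, Mx1, Mx2, Oas1a, Oas2, Oas3, Oasl1, Oasl2, Rsad2, Usp18, Rtp4, Ifi44, Ifi35, Xaf1, Bst2, Parp14, Cmpk2 and Slfn4), 4 sensors of nucleic acids (Ddx58, Ifih1, Dhx58 and Zbp1) and the transcription factors Irf7, Irf9 and Stat2. A further 9 genes (Iigp1, Igtp, Irgm1, Irgm2, Gbp2, Gbp3, Gbp6, Ifi47 and Tgtp1) encode GTPases that are best known as targets of interferon gamma. The transcription factor Irf1 responds to both kinds of interferon and was counted in neither class. Usp18 was counted with the effectors, although its protein removes Isg15 and damps the receptor. Each gene was read from its brightest probe, and all 38 were measured: each lay well above background on at least 28 of 29 arrays. A second probe of Ddx58 and of Cmpk2 had the same sign as the first at 3 of 6 times, and those of Gbp6 and Irgm1 at 4 of 6. In Iigp1 the signs matched at all 6 times, but the differences of its 2 probes lay up to 1.58 log2 apart. In Gbp6 they lay up to 1.54 apart. The second probe of Irf1 lay above background on 2 arrays and was not compared. The probe of Tgtp1 was the dimmest of the members (mean level -3.06), whereas that of its near-identical copy Tgtp2 averaged 4.14. Whether the Tgtp1 probe also reads Tgtp2 was not tested.

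Type I interferons bind the receptor made of Ifnar1 and Ifnar2, whose kinases Jak1 and Tyk2 activate transcription factors that include Stat2. Complexes that hold Stat2 and Irf9 bind an element called ISRE in the promoters of antiviral genes. Interferon gamma, made by T cells and natural killer cells, acts through Ifngr1 and Ifngr2, and many of its target genes carry an element called GAS. The immunity-related and guanylate-binding GTPases gather on the vacuoles of intracellular microbes. In the lung both programmes are held at a low level until a virus, a microbe or released nucleic acid sets them off.

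Oleic acid is a fatty acid that injures the endothelium of the lung when injected into a vein. All mice were female, of strain C57BL/6, aged 6 weeks and anaesthetised with xylazine and ketamine. The treated groups were injected in the tail vein with oleic acid at a dose of 1.2 µl/g, in a volume of 200 µl. The controls were injected with 200 µl of saline, which the labels call physiological serum. Whole lungs were taken at 1, 1.5, 3, 4, 18 or 24 h, and each array carried RNA of 1 mouse. Of 31 arrays, 29 were used: 16 from oleic acid mice and 13 from saline mice. Replicate 3 of oleic acid at 1.5 h was left out, since the slope of its signal against the amount of spike-in RNA was 1.66, and so was replicate 2 at 3 h, with a slope of 0.751. The slope on the others was 0.937 to 1.06. Groups therefore held 3 arrays, or 2 for saline from 1.5 h on and for oleic acid at 1.5 and 3 h.

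The share of spots well above background ran from 51.2% to 82.4% over the 29 arrays, and 5 arrays exceeded 70%. The 7 markers of alveolar epithelium and the 7 of endothelium lay above background on all 29. Arrays sat on 4 slides. At 1.5 h saline replicate 1 was on slide 1 and the other arrays used were on slide 2. At 3 h oleic acid replicate 3 was on slide 3 and the others used were on slide 2. At 1, 4 and 24 h both treatments shared a slide, whereas at 18 h saline was on slide 3 and oleic acid on slide 4, so treatment and slide cannot be told apart there. Levels are log2 signals after subtraction of each array's 75th percentile, and differences are on the same log2 scale with moderated 95% intervals. In whole lung, fewer cells of a type and less RNA per cell cannot be told apart.

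No member passed the test at any time. With limma and Benjamini-Hochberg adjustment over all features, 0 of 38 had an adjusted p under 0.05 at 1, 1.5, 3, 4, 18 or 24 h. Among all features the share called was 0% at 1, 1.5 and 3 h, 0.0199% at 4 h, 0.0199% at 18 h and 0.0159% at 24 h, so the lack of calls is shared with nearly every gene of these lungs. The members with an unadjusted limma p under 0.05 were 1 at 1 h (Rsad2; 4.31% of all features), 1 at 1.5 h (Mx1; 1.42%), 0 at 3 h (6.3%), 1 at 4 h (Irgm2; 7.64%), 1 at 18 h (Slfn4; 2.31%) and 0 at 24 h (4.74%).

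The median difference of the members was below 0 at 1 h and above 0 at the later times. Whether the oleic acid difference changed between single times was not tested. At 1 h, 7 of 38 members were above 0, against 57.2% of all features, and the median difference of the members was -0.27 (all features 0.04). At 1.5 h, 36 of 38 were above 0 (45.5% of all features), with a median of 0.27 against -0.02. At 3 h the count was 28 (49.4%) and the median 0.24. At 4 h it was 22 (40.1%) with a median of 0.10 against -0.08, at 18 h it was 28 (47%) with 0.09 against -0.02, and at 24 h it was 26 (35.6%) with 0.11 against -0.12. For scale, the mean of the 38 members on an array varied with a pooled SD of 0.28 within groups.

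Single arrays carried much of this pattern, and the negative median at 1 h rested on 1 of them. Without saline 1 h replicate 2, the median at 1 h was 0.02 and 21 members were above 0. Omission of a single array also took the median as low as -0.04 at 4 h, -0.03 at 24 h and 0.11 at 1.5 h. At 3 h it became -0.13 without oleic acid 3 h replicate 3 and 0.56 without oleic acid 3 h replicate 1. With slide as a block, which leaves the 3 h comparison to the arrays of slide 2, it was -0.13. The block likewise leaves the 1.5 h comparison to slide 2, without saline 1.5 h replicate 1, and its median was 0.38. With the left-out arrays included, the medians at 1.5 and 3 h were 0.78 and -0.44. Centring arrays on their median moved the median of all features by over 0.1 at 1.5, 3, 18 and 24 h (to 0.27, -0.18, 0.29 and 0.06), and relative to it 37, 28, 29 and 30 of the 38 members were above.

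**Figure D1:**
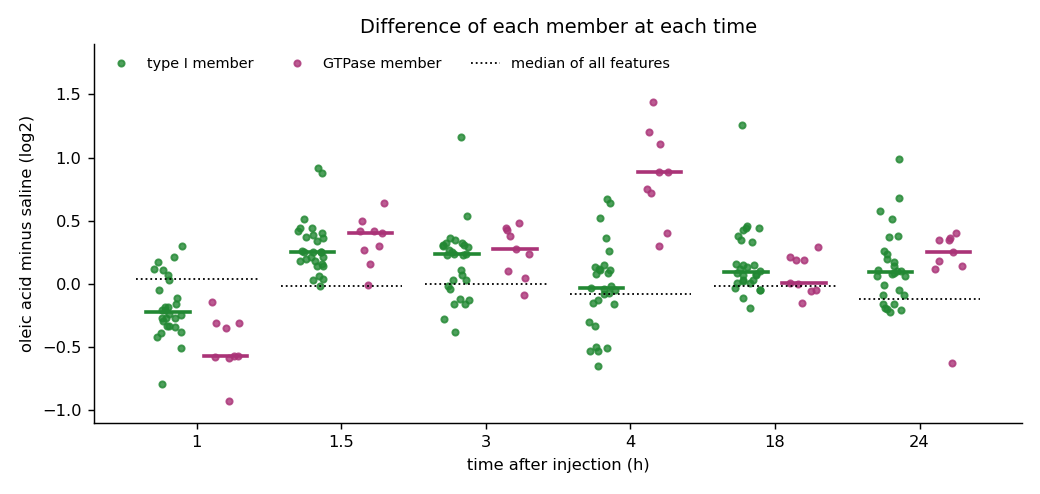
Difference between oleic acid and saline (log2, vertical axis) for each of 28 type I members (green) and 9 GTPase members (purple) at each time after injection (h, horizontal axis), with class medians as bars and the median of all 25127 features dotted. The GTPases lie below 0 at 1 h (median -0.57) and above 0 at 4 h (median 0.89), when the type I median is -0.03, and the single high green point at 3, 18 and 24 h is Slfn4.

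Groups without overlap were counted as well. At 1 h the oleic acid arrays all lay above the saline arrays for 1 member (Ddx58; 3.19% of all features) and all below for 2 (Irgm1 and Irf1; 1.41%). At 1.5 h 19 members were above (11%) and 0 below (14%). The counts at 3 h were 7 above (18%) and 0 below (17.7%), and at 4 h 2 above (Ifit1 and Ifit2; 8.34%) and 3 below (Mx2, Isg15 and Oas1a; 14.5%). At 18 h 7 were above (5.51%) and 0 below (6.51%), and at 24 h 6 were above (5.92%) and 0 below (15.6%). With 2 arrays against 2 at 1.5 and 3 h, separation of the groups is frequent among all features, as those shares show.

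Among the 21 antiviral effectors, Slfn4, a member of the Schlafen family found mainly in myeloid cells, had the largest differences. At 3 h its level was -1.85 and -2.41 on the saline arrays and -1.30 and -0.64 on the oleic acid arrays. At 18 h it was -3.63 and -2.38 in saline and -1.25, -2.16 and -1.82 in oleic acid. At 24 h it was -3.24 and -2.16 in saline and -0.84, -2.14 and -2.14 in oleic acid. The oleic acid arrays thus lay above the saline arrays at these times, although at 24 h the nearest arrays were almost level.

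The difference of Slfn4 was 1.16 (-0.05 to 2.36) at 3 h, 1.26 (0.17 to 2.36) at 18 h, a 2.40-fold higher level, and 0.99 (-0.11 to 2.08) at 24 h. Limma's adjusted p was 0.808, 1 and 0.835, so none passed. At 1, 1.5 and 4 h the differences were 0.30, 0.37 and 0.64, again above 0. Over 18 and 24 h together the difference was 1.13 (0.35 to 1.9; limma adjusted p = 0.942). Slfn4 and Rtp4 were the 2 members above 0 at all 6 times, and 3.74% of all features were so. No member was below 0 at all 6 times, against 5.74% of all features.

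The size of the Slfn4 difference depended on single arrays. At 4 h it was 0.13 without saline 4 h replicate 1 and 1.15 without replicate 2. At 18 h it was 0.64 without saline 18 h replicate 1 and 1.89 without replicate 2, and at 24 h it was 0.45 without saline 24 h replicate 1, 1.53 without replicate 2 and 0.55 without oleic acid 24 h replicate 1. At 1 h, where saline replicate 1 read -2.15 and the others -0.47 and -0.80, it turned to -0.21 without replicate 1. The 12 neutrophil markers had a median difference of 0.50 at 3 h, with 11 of 12 above 0, and of 0.14 and 0.05 at 18 and 24 h. The 7 measured monocyte markers had 0.15, 0.26 and 0.31 at these times, with 5, 6 and 6 of 7 above 0. At 1, 1.5 and 4 h the neutrophil medians were -0.24, 0.32 and -0.55, with 1, 10 and 3 of 12 above 0. The monocyte medians were then -0.24, 0.60 and 0.01, with 1, 7 and 4 of 7 above 0. The part of these markers in the Slfn4 difference was not tested.

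Mx1 encodes a dynamin-like GTPase that blocks influenza viruses, and C57BL/6 mice carry a defective allele of it. At 1.5 h its level was -1.70 and -2.35 in saline and -1.39 and -0.82 in oleic acid, a difference of 0.92 (0.26 to 1.57; limma adjusted p = 1) that ran from 0.59 without saline 1.5 h replicate 2 to 1.24 without replicate 1. At 24 h it was -2.34 and -2.11 in saline and -1.63, -1.68 and -1.62 in oleic acid. That difference was 0.58 (-0.02 to 1.17; limma adjusted p = 0.835). The oleic acid arrays stood above the saline arrays at both times and at 3 h (difference 0.23), and at 1, 4 and 18 h the groups overlapped, with differences of -0.16, 0.11 and -0.05.

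Isg15, a ubiquitin-like protein that is joined to other proteins during the type I response, ran the other way at 4 h. The saline arrays then read 2.96 and 3.46 and the oleic acid arrays 2.94, 2.60 and 2.51, a difference of -0.53 (-1.29 to 0.24; limma adjusted p = 0.7). At 1.5 h the saline arrays read 3.19 and 2.87 and the oleic acid arrays 3.30 and 3.57, a difference of 0.40 (-0.43 to 1.24; limma adjusted p = 1). At the other times its groups overlapped, with differences from -0.29 to 0.24. The nearest arrays of the groups lay close together at both times, so the separations are narrow.

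Mx2 and Oas1a, the latter an enzyme whose product activates RNase L, were also lower without overlap at 4 h. Oas1a read 2.21 on both saline arrays and 1.78, 1.67 and 1.57 in oleic acid, a difference of -0.53 (-1.16 to 0.09; limma adjusted p = 0.652). Mx2 read -0.61 and -0.19 in saline and -0.92, -1.05 and -1.18 in oleic acid, a difference of -0.65 (-1.48 to 0.18; limma adjusted p = 0.666). At 18 h the difference of Oas1a was 0.33, above 0.

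Rsad2, which encodes viperin, was the most negative type I member at 1 h. Its level was 1.02, 1.29 and -0.56 in saline and -0.21, 0.06 and -0.46 in oleic acid. The groups overlapped, because saline replicate 3 was the lowest of the 6. The difference was -0.79 (-1.55 to -0.02; limma adjusted p = 1), and -0.43 without saline 1 h replicate 2. Xaf1, an interferon-induced promoter of cell death, had -0.33 (-0.70 to 0.04), and Usp18, the protease that removes Isg15 and damps the receptor, had 0.21 (-0.15 to 0.57). Xaf1 was at -0.14 without saline 1 h replicate 2, and Usp18 ran from 0.11 without oleic acid 1 h replicate 2 to 0.34 without replicate 3.

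As a group the 21 effectors had median differences of -0.21, 0.25, 0.24, -0.05, 0.09 and 0.10 at the 6 times, with 6, 21, 16, 8, 17 and 15 of them above 0. At 1.5 h all 21 were above 0, from 0.03 to 0.92, and the 7 monocyte markers were above 0 as well, with a median of 0.60. Of the 12 neutrophil markers 10 were above 0 then (median 0.32), and of the 6 B cell markers 0 (median -0.17). The part of these cell types in the effector differences was not tested. At 18 h Oasl2, of the Oas-like family, read 1.72 and 1.5 in saline and 2.29, 1.93 and 1.93 in oleic acid, a difference of 0.44 (-0.11 to 0.99; limma adjusted p = 1). The 12 effectors not described singly up to here ranged from -0.50 to 0.68 over all 6 times.

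Of the 4 nucleic acid sensors, Zbp1, which binds Z-form nucleic acids and can start necroptosis, had the largest differences. At 1.5 h its level was 0.34 and -0.43 in saline and 0.55 and 1.12 in oleic acid. The difference was 0.88 (-0.12 to 1.88; limma adjusted p = 1), and 0.49 without saline 1.5 h replicate 2. At 18 h the saline arrays read -0.71 and -1 and the oleic acid arrays -0.34, -0.24 and -0.66. At 24 h the values were -0.39 and -0.16 in saline against 0.45, 0.03 and 0.21. Oleic acid was above saline without overlap at 1.5, 18 and 24 h, whereas at 3 and 4 h, with differences of 0.35 and 0.67, the groups overlapped.

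The RNA helicases showed less. Ddx58, which encodes RIG-I, differed by 0.17 (-0.08 to 0.41) at 1 h, where its values were 1.79, 1.98 and 1.93 in saline and 2.15, 2.04 and 2.01 in oleic acid; with the mean of its probes the difference was -0.08. Dhx58, which encodes LGP2, differed by -0.51 (-1.17 to 0.14; limma adjusted p = 0.666) at 4 h, by -0.22 without saline 4 h replicate 2 and by -0.81 without replicate 1. Ifih1, the sensor MDA5, stayed between -0.11 and 0.32 over the 6 times. All 4 sensors were above 0 at 1.5 h, and 1, 3, 2, 3 and 2 of them at 1, 3, 4, 18 and 24 h.

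The transcription factors gave small differences. Irf7, the factor that amplifies type I interferon production, read -0.62 and -0.79 in saline and -0.55 and 0.22 in oleic acid at 3 h. Its difference there was 0.54 (-0.14 to 1.22; limma adjusted p = 0.863), 0.16 without oleic acid 3 h replicate 3 and 0.93 without replicate 1. At 18 h it read -1.02 and -0.78 in saline and -0.42, -0.38 and -0.75 in oleic acid, a difference of 0.38 (-0.24 to 1.00), and at 24 h the difference was 0.37 (-0.25 to 0.99). Oleic acid lay above saline without overlap at these 3 times, narrowly so at 3 and 18 h.

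Irf1 read 3.94, 4.64 and 3.94 in saline and 3.87, 3.85 and 3.8 in oleic acid at 1 h, a difference of -0.33 (-0.86 to 0.19; limma adjusted p = 1). The highest saline value was that of replicate 2, and the others lay just above the oleic acid arrays. At 1.5 h it read 3.59 and 3.63 in saline against 3.89 and 4.28, a difference of 0.47 (-0.17 to 1.12; limma adjusted p = 1). From 3 h on its groups overlapped, with differences of -0.17, 0.05, -0.09 and -0.28. The groups of Irf1 were thus apart in opposite directions at 1 and 1.5 h.

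Stat2 ranged from -0.25 at 1 h to 0.42 (-0.22 to 1.06) at 1.5 h, and Irf9 from -0.28 at 3 h to 0.26 at 1.5 h; the -0.28 of Irf9 was 0.03 without saline 3 h replicate 2. All 4 factors were below 0 at 1 h and 3 of 4 above 0 at 1.5 h. For Stat2 no limma adjusted p was below 0.816.

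**Figure D2:**
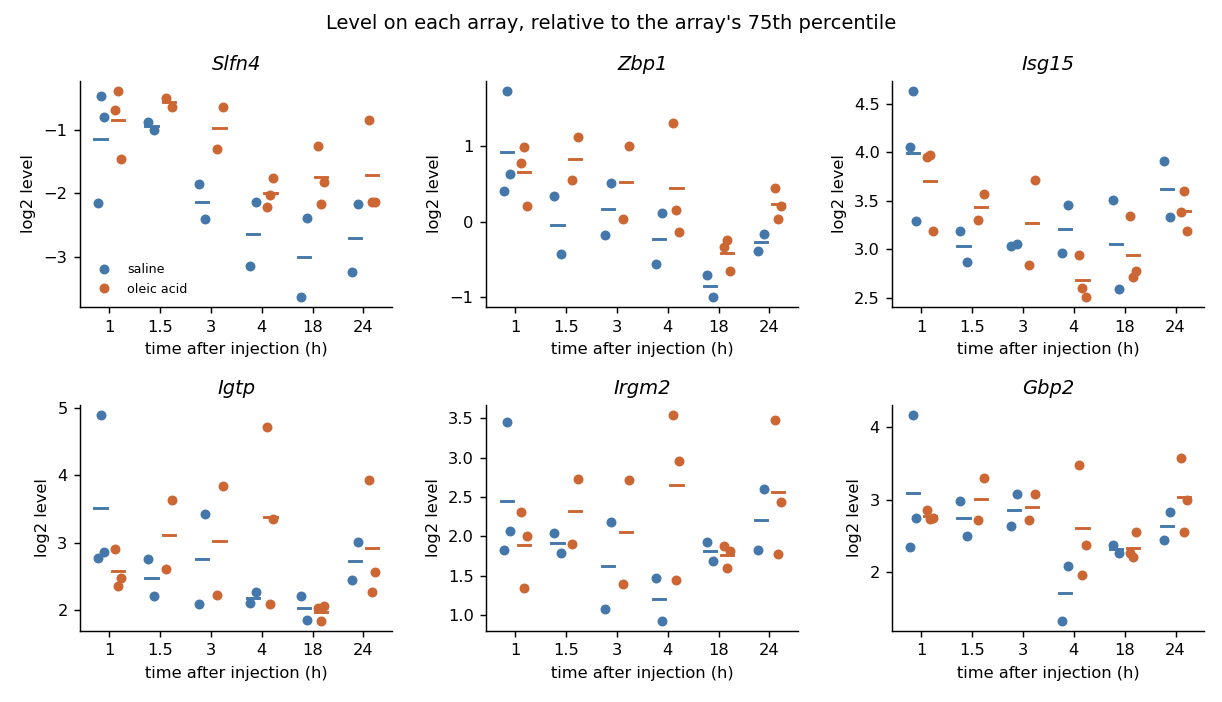
Level of 6 members on each array (log2, 75th percentile of each array subtracted, vertical axes) by time after injection (h), for saline (blue) and oleic acid (orange), with the group means as short bars. Slfn4 lies higher in oleic acid at 18 h, whereas Igtp, Irgm2 and Gbp2 spread widely within the oleic acid group at 4 h, where Irgm2 runs from 1.45 to 3.54.

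Promoter sequences of the members were searched for the ISRE and the GAS, and any link to the differences was not tested. RefSeq windows from 250 bases before to 50 after the start of the gene (GRCm38.p6) were at hand for 28 of the 38 members and 7 of the 9 GTPases. The ISRE was searched as GAAA, 2 bases of any kind and GAAA, and the GAS as TTCNNNGAA, on both strands; matches of the 2 motifs can overlap. An ISRE match stood in 16 of the 28 members (57.1%), in 6 of the 7 GTPases and in 10 of 20 type I members, against 3.99% of 27025 genes. A GAS match stood in 8 of 28 members (28.6%), in 3 of 7 GTPases and in 4 of 20 type I members, against 9.55% of all genes. A match describes letters and is not shown to be a bound site.

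In Igtp, Irgm2 and Tgtp1 a GAS match is followed after 2 bases by an ISRE match. A GAS match with an ISRE match starting within 10 bases after it, a limit set after these sequences were seen, stood in 13 of 27025 genes, 4 of them members (Bst2 is the other). The 45 bases around the pair in Igtp and Irgm2 differ at 1 base, and those of Tgtp1 differ from Irgm2 at 11. Irgm1 and Gbp2 hold an ISRE without a GAS, Irf1 a GAS without an ISRE, and Isg15 is given as a type I gene with overlapping ISRE matches. All lie before the start of the gene, are written 5′ to 3′ on its strand and have the matches in capitals.
Igtp (chr11:58199499-58199543, plus strand): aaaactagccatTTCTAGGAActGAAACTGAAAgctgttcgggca
Irgm2 (chr11:58214890-58214934, plus strand): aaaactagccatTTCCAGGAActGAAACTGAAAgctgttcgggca
Tgtp1 (chr11:48992302-48992346, minus strand): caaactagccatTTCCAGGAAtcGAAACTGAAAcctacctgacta
Irgm1 (chr11:48871423-48871462, minus strand): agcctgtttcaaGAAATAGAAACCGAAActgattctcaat
Gbp2 (chr3:142620592-142620625, plus strand): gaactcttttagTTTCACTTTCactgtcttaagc
Irf1 (chr11:53769912-53769944, plus strand): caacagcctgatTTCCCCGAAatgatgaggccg
Isg15 (chr4:156200863-156200908, minus strand): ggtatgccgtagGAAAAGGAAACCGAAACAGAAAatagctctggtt

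The 9 GTPases had their highest values relative to saline at 4 h, when all 9 were above 0, from 0.30 to 1.44, with a median of 0.89. With normexp background correction 8 of 9 were above 0. At the same time the 28 type I members had a median of -0.03 with 12 above 0. Irgm2, an immunity-related GTPase of internal membranes, read 1.47 and 0.93 in saline and 3.54, 1.45 and 2.95 in oleic acid. Igtp, which encodes Irgm3, read 2.10 and 2.26 in saline and 4.72, 2.08 and 3.35 in oleic acid. In both genes oleic acid replicate 1 was the highest and replicate 2 lay among the saline arrays or below them, so the groups overlapped.

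The difference of Irgm2 at 4 h was 1.44 (0.18 to 2.71), 2.72-fold, from group means of 2.65 ± 1.07 (SD, n = 3) in oleic acid and 1.2 ± 0.38 (SD, n = 2) in saline. Limma's adjusted p was 0.647. Igtp differed by 1.2 (-0.28 to 2.68; limma adjusted p = 0.66) and Irgm1, which regulates the other immunity-related GTPases, by 0.89 (-0.01 to 1.80; limma adjusted p = 0.647). Gbp2, a guanylate-binding protein, read 1.34 and 2.09 in saline and 3.47, 1.97 and 2.38 in oleic acid, a difference of 0.89 (-0.05 to 1.82; limma adjusted p = 0.647). None of the 9 separated the groups at 4 h.

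Leaving out oleic acid 4 h replicate 1 lowered the GTPase median at 4 h to 0.46, with 7 of 9 above 0, and the difference of Irgm2 to 1.00. Without oleic acid 4 h replicate 2 the median was 1.21 and that of Irgm2 2.04. All 4 h arrays shared slide 3. The 4 liver markers, genes of another organ, read higher in oleic acid at 4 h (median difference 1.72). Their means on oleic acid replicates 1, 2 and 3 were -1.01, 0.14 and -0.74, and -1.41 and -2.75 in saline. The GTPase means on these arrays were 1.2, -0.5 and 0.18, and -0.81 and -0.32 in saline. The 12 T cell and natural killer cell markers had a median difference of 0.31, with 10 of 12 above 0. Neither the part of these markers nor that of any other cell type in the GTPase difference was tested.

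At 1 h the 9 GTPases were all below 0, from -0.93 to -0.14, with a median of -0.57 (8 of 9 below 0 after quantile normalization). Igtp read 2.77, 4.90 and 2.86 in saline and 2.90, 2.36 and 2.47 in oleic acid. The groups overlapped, and the high saline value came from replicate 2. Without that array the GTPase median at 1 h was -0.03, and 4 of 9 were above 0.

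At 24 h 8 of 9 GTPases were above 0 with a median of 0.25, and Gbp6 was at -0.63 (-2.01 to 0.75; limma adjusted p = 0.84); with the mean of its probes Gbp6 was at 0.14. One array again carried the others. Irgm2 read 1.82 and 2.60 in saline and 3.48, 1.78 and 2.43 in oleic acid, so the arrays other than oleic acid replicate 1 lay within the saline range or just under it. Without oleic acid 24 h replicate 1 the GTPase median was -0.14 and 2 of 9 were above 0. At 1.5, 3 and 18 h the medians were 0.40, 0.28 and 0.01.

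**Figure D3:**
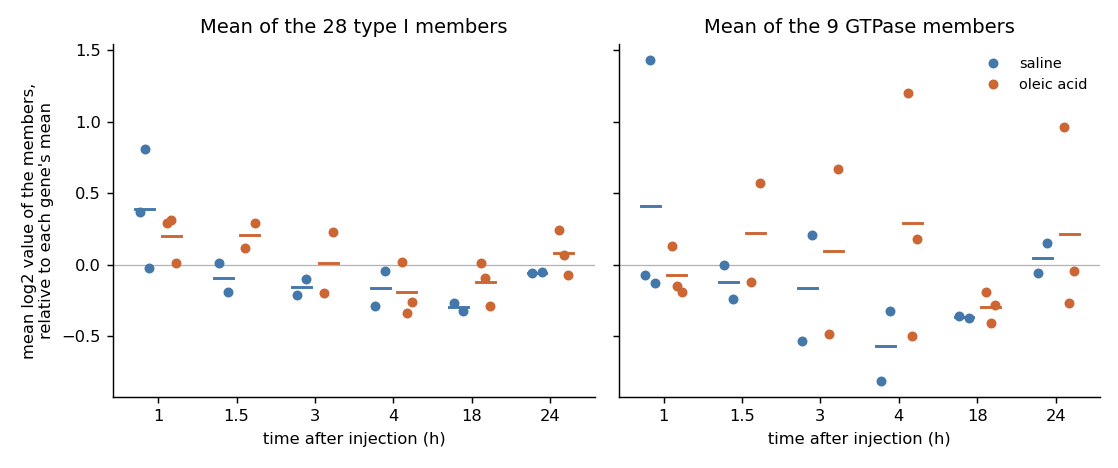
Mean of the type I members (left) and of the GTPase members (right) on each of 29 arrays, as log2 values relative to the mean of each gene (vertical axis), by time after injection (h), for saline (blue) and oleic acid (orange), with group means as bars. In the GTPase panel the highest points are 1.43 in saline at 1 h, 1.2 in oleic acid at 4 h and 0.96 in oleic acid at 24 h, and the type I panel spans -0.34 to 0.81.

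The GTPases varied between mice of 1 group more than the type I members did. Their median SD within groups was 0.64, against 0.315 for the type I members and 0.31 for all features measured on every array. The mean of the 9 GTPases on an array ran from -0.81 (saline 4 h replicate 1) to 1.43 (saline 1 h replicate 2), with a pooled SD of 0.56 within groups, and that of the 28 type I members from -0.34 to 0.81, with a pooled SD of 0.21. Group differences in the GTPase mean ran from -0.48 at 1 h to 0.86 at 4 h, so that only the latter exceeded the pooled SD. High GTPase values thus occurred in both treatments and at several times.

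The 3 arrays that stood highest differed in their other members. On saline 1 h replicate 2 all 38 members were above their own mean, 22 of 38 had their highest value of the 29 arrays, and the type I mean was 0.81. On oleic acid 4 h replicate 1 the GTPase mean was 1.2 while the type I mean was 0.02, and 8 of 9 GTPases but 4 of 28 type I members were among their 3 highest values. On oleic acid 24 h replicate 1 the 2 means were 0.96 and 0.24. The gap between the class means was therefore 0.62, 1.18 and 0.72.

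Ifng, the gene of interferon gamma itself, was high on 1 of these arrays. Its level at 4 h was -0.18 on oleic acid replicate 1, against -3.03 and -4.18 on the other oleic acid arrays and -4.70 and -3.07 in saline. On saline 1 h replicate 2 it was -2.96 and on oleic acid 24 h replicate 1 -3.40, within the range of the remaining arrays. The difference of Ifng at 4 h was 1.43 (-0.08 to 2.93; limma adjusted p = 0.647), and Ifng lay above background on 27 of 29 arrays.

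Markers of another organ and of cell types were read on the same arrays. On saline 1 h replicate 2 the 4 liver markers averaged 3.66 above their own mean and the 4 red cell precursor markers 1.13, the highest of the 29 arrays in each case, and the monocyte markers averaged 0.53. On oleic acid 4 h replicate 1 the liver markers averaged -1.01, the monocyte markers -0.19 and the T cell and natural killer cell markers 0.44. On oleic acid 24 h replicate 1 these were -0.62, 0.39 and -0.36. Over the 29 arrays the liver mean ran from -2.75 to 3.66 and the monocyte mean from -0.46 to 0.60. Their part in the members' values was not tested.

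**Figure D4:**
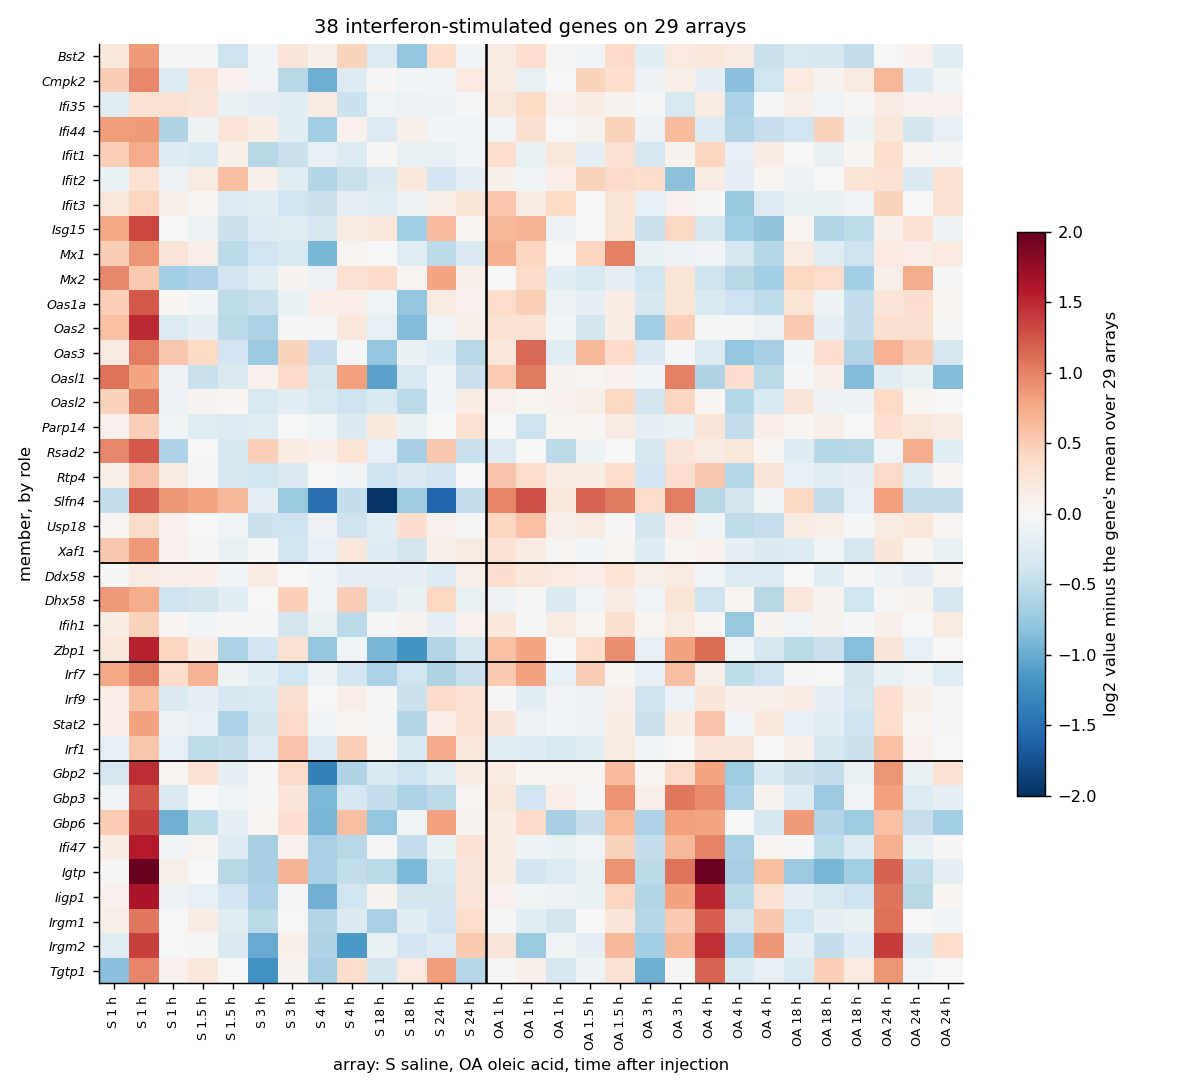
Log2 value of each of 38 members (rows, grouped by role) on each of 29 arrays (columns, saline left and oleic acid right, by time), relative to the mean of the gene over the arrays; red is above and blue below. The column of saline 1 h replicate 2 is red in all 38 rows, whereas that of oleic acid 4 h replicate 1 is darkest in the GTPase rows at the bottom.

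The oleic acid differences early and late were compared directly. Over 1 to 4 h together 0 of 38 members passed (0% of all features), 1 had an unadjusted limma p under 0.05 (Slfn4; 7.41%) and 28 were above 0 (44.7%). Over 18 and 24 h together 0 passed (0.00796%), 1 had such a p (Slfn4; 3.03%) and 29 were above 0 (36.9%). For the late mean minus the early mean 0 passed (0%), 0 had an unadjusted p under 0.05 (1.27%), and 18 were above 0 (39.4%). All 9 GTPases were above 0 over 1 to 4 h (median 0.22). This mean joins unlike times, since all 9 were below 0 at 1 h (median -0.57) and above 0 at 4 h (median 0.89). As given above, both of these medians leaned on single arrays. For late minus early 2 of 9 were above 0 (median -0.15).

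Time itself was examined within saline mice. The early saline arrays were on slides 1 to 3 and the late ones on slides 3 and 4, so time and slide are largely confounded, and slide as a fixed block could not be fitted here. Between saline at 18 and 24 h and saline at 1 to 4 h 0 of 38 members passed, against 2.69% of all features, and 4 had an unadjusted limma p under 0.05 (14.9%), with 16 above 0 (52.3%). These 4 were lower late: Slfn4 by -1.14 (-1.87 to -0.42; limma adjusted p = 0.0872), Irf7 by -0.63 (-1.04 to -0.22; limma adjusted p = 0.0964), Zbp1 by -0.77 (limma adjusted p = 0.183) and Oasl1 by -0.64 (limma adjusted p = 0.309). Slfn4 passed without saline 1 h replicate 1 (-1.27; limma adjusted p = 0.0331) and without the 5 arrays that had over 70% of spots above background (-1.60; limma adjusted p = 0.0267). The saline arrays are also those against which oleic acid is set, so the late differences of Slfn4, Irf7 and Zbp1 share these low values.

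For saline at 18 h minus 4 h, both on slide 3, 0 of 38 members passed (6.34% of all features), 1 had an unadjusted limma p under 0.05 (23.3%) and 18 were above 0 (46%). That one was Bst2, the membrane tether of budding viruses, which read 4.77 and 5.10 at 4 h and 4.39 and 3.89 at 18 h, a difference of -0.79 (-1.39 to -0.20; limma adjusted p = 0.0989). Between oleic acid at 24 h and 18 h, both on slide 4, 0 passed (0.0119%), 1 had such a p (Ifit3; 2.24%) and 32 were above 0 (52.4%). The median of the members was 0.27 there and that of the GTPases 0.48. Ifit3, which binds viral RNA together with Ifit1, differed by 0.37 (0.01 to 0.73; limma adjusted p = 1).

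The rest of the pathway was read from 71 tested genes of a list of ligands, receptors, kinases, sensors, inhibitors and other induced genes. In the oleic acid comparisons 0 of the 71 passed. Of the ligands, Ifnb1 was above background on at most 2 arrays and was not tested. The 6 receptor genes had median differences between -0.14 and 0.17 at the 6 times. The 33 other interferon-induced genes had 8, 27, 20, 25, 21 and 21 above 0 at the 6 times, with medians of -0.22, 0.24, 0.08, 0.18, 0.05 and 0.06.

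Within saline mice 6 of the 71 passed between 18 and 4 h, a comparison in which 6.34% of all features were called. The calls over all features fell from 1593 to 31 with median centring, to 19 with all 31 arrays and to 309 without saline 18 h replicate 2. The 4 liver markers had a median difference of 2.86 here and the 12 neutrophil markers -1.14, and their part in the calls was not tested. Tyk2, a kinase of the type I receptor, rose by 2.26 (1.17 to 3.35; limma adjusted p = 0.0169) and Ikbke, a kinase upstream of Irf7, by 1.24 (limma adjusted p = 0.0205). Stat3, which also carries interleukin 6 signals, fell by 1.35 (limma adjusted p = 0.0124), Trim24, a transcriptional corepressor, fell by 0.98 (limma adjusted p = 0.0154) and the phosphatase Ptpn11 fell by 0.54 (limma adjusted p = 0.0323). Tyk2 read -1.32 and -2.99 at 4 h and -0.29 and 0.49 at 18 h. Ikbke was dim (mean level -2.66, above background on 28 of 29 arrays), so the size of its rise leans on weak signals. It read -3.5 and -3.93 at 4 h, the latter its lowest value, and -2.96 and -1.97 at 18 h. The -1.97, its highest value, came from saline 18 h replicate 2, whose share well above background was 77.5%. Tlr3, a sensor of double-stranded RNA, was also called higher, but it lay above background on 23 of 29 arrays and was near its lowest level at 4 h, so no size is given.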

How the data were processed

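The members and gene lists were chosen with earlier results of these data known. The submitters' processing notes name Agilent Feature Extraction, version 10.5.1.1. Each spot has, per the file headers, an intensity as mean signal, background signal and processed signal, the last corrected for background. The authors also deposited a matrix on the log2 scale, used as an alternative; how its background was treated is not given in the sources used here.

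Signals of 59305 non-control spots (processed signal) were taken as log2 in R 4.3.3 using data.table (release 1.17.8), the 75th percentile of each array was subtracted, spots marked as outliers were dropped and spots of each of 55681 probes averaged. A probe was kept if, in 1 or more groups, all arrays had it well above background, and the brightest kept probe stood for a gene. Probes took symbols from RefSeq accessions (26582) or the file's symbol (3046). For 48 probes a file symbol lying on another chromosome was dropped. Gbp6 was named by accession, and the array design calls its probe Mpa2l. Arrays with a spike-in slope under 0.8 or over 1.2 were left out.

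In limma 3.58.1 (statmod 1.5.0) the means of 12 groups were fitted to 29 arrays with empirical Bayes moderation, and 12 comparisons were made. P-values were adjusted (Benjamini-Hochberg) across the 25127 features of each, with a threshold of 0.05. Recovery of known changes by the fit was tested on simulated arrays with independent noise, with changes added to oleic acid at 1 h only. Recovery in groups of 2 arrays was not simulated, nor was noise shared between genes or arrays. The 38 members may all be named, and those described in full are the 2 highest and 2 lowest moderated statistics at each time, any that passed, and Isg15, Irf7, Irf1, Stat2, Igtp and Gbp2. Pathway genes are named if they passed or are ligands, receptors or kinases. Alternatives were other background corrections (normexp with an offset of 50), scalings, filters, probe summaries and arrays, slide and replicate number as blocks, array weights and the omission of each array. The number of arrays limits the precision. Values of some pathway genes are not reported here.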

Additional observations from a re-analysis of the deposited data

Results flagged for a closer look

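In Irf1, all oleic acid arrays lay below the saline arrays at 1 h (difference -0.33) and above them at 1.5 h (0.47). Isg15 was above at 1.5 h (0.40) and below at 4 h (-0.53), and Mx2 was above at 1.5 h (0.25) and below at 4 h (-0.65). These differences between times were not tested. The 1.5 h comparison rests on 2 arrays against 2, and at 1.5 h 11% of all features were likewise above.

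Oleic acid 1.5 h replicate 3, an array left out for its spike-in slope of 1.66, had a mean of 2.42 relative to the means of the 29 arrays, over the 29 of 38 members measured on it. Its type I mean was 1.35 (20 of 28 members) and its GTPase mean 4.97 (8 of 9). The scanner marked 15585 of its spots as outliers and 523 as saturated. The saline arrays of that time had GTPase means of 0 and -0.24. The other array left out, oleic acid 3 h replicate 2, had a mean of -1.40. No group held 4 or more arrays, so single arrays were not tested as outliers.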

How the results depend on the processing

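No member was called under any alternative, except as follows. With array weights 17 were called at 1 h, where 2784 of all features were called and saline 1 h replicate 2 had a weight of 3.26 against 0.408 and 0.417 for the other saline arrays; Rsad2 (-1.31; adjusted p = 0.00165) and Xaf1 (-0.50; 0.0228) were among them. For saline late minus early 1 member was called with 24 arrays, and between 0 and 1 when single arrays were left out. The median difference of the members moved to -0.62 at 1 h with array weights, to 0.78 at 1.5 h and -0.44 at 3 h with all 31 arrays, and to -0.13 at 3 h with slide as a fixed block. With median centring it was 0.56 at 1.5 h, 0.39 at 18 h and -0.53 for saline 18 h minus 4 h, where the median of all features moved too (to 0.27, 0.29 and -0.52). Leaving out single arrays it ran from -0.47 to 0.02 at 1 h and from -0.13 to 0.56 at 3 h. The range was -0.04 to 0.22 at 4 h and -0.03 to 0.21 at 24 h. The GTPase median minus the type I median was 1.49 at 1.5 h with all 31 arrays and ran from -0.25 to 0.55 at 3 h over omissions of single arrays. The causes of these shifts were not tested.

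Signs turned for Slfn4 at 1 h (-0.43 with 24 arrays, -0.12 with array weights) and at 1.5 h (-0.16 with 31 arrays), Ddx58 at 1 h (-0.08, mean of probes), Gbp6 at 24 h (0.14, mean of probes), Irf7 at 1.5 h (0.27 with median centring, 0.37 with slide as a block), Tgtp1 at 1.5 h (0.24, quantile; 0.28, median centring; 0.16, deposited table; 0.09, slide as a block), Irf1 at 18 h (0.22) and Mx2 at 18 h (0.12), both with median centring. Omitting single arrays, Slfn4 at 1 h ran from -0.21 to 0.63, Irf7 at 1.5 h from -0.41 to 0.37, Tgtp1 at 1.5 h from -0.21 to 0.19, Irf9 at 3 h from -0.59 to 0.03, Irf1 at 18 h from -0.26 to 0.08 and Mx2 at 18 h from -0.38 to 0.17.

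Samples of a number are not shown to be paired. Over 12 pairs with the same replicate number, deviations from the group means correlated from -0.76 to 0.62, and 7 pairs were above 0.1. In a group of 2 arrays the deviations mirror each other, so such pairs are not independent. With the replicate block 0 members were called, and the median difference was -0.27, 0.27, 0.32, 0.13, 0.13 and 0.16 at the 6 times. Over all settings the number of all features called ran from 0 to 2784 at 1 h, from 0 to 98 at 1.5 h, from 0 to 111 at 3 h, from 0 to 27 at 4 h, from 0 to 237 at 18 h, from 0 to 15 at 24 h, from 26 to 897 for late against early saline and from 19 to 1884 for saline 18 h minus 4 h. Groups of 2 or 3 arrays limit what could be called, and the fixed slide block could not be fitted at 18 h, for the mean of 18 and 24 h, for late minus early, or for late against early saline.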
